A study of Mus musculus with 3 samples.

Results

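The RAB genes encode small GTPases, and 59 of the 55536 annotated genes of these libraries were taken as members: every gene whose symbol is Rab followed by a number, with or without further letters, and that has a protein-coding transcript in the GENCODE M21 annotation of mm10. The rule uses no measured value. The material was chromatin-fraction RNA from bone-marrow-derived macrophages of C57BL/6J mice, which are macrophages grown in culture from marrow precursors. All 3 libraries came from cells given Lipid A at 100 ng/ml for 60 minutes, and no unstimulated library is analysed here, so no value below measures a response to Lipid A. Lipid A is the lipid part of bacterial lipopolysaccharide and the ligand of the receptor TLR4. Ribosomal RNA was depleted and total RNA was sequenced, so reads can come from nascent and incompletely spliced transcripts as well as from finished ones. The labels give biological replicate numbers 1, 2 and 3, starting amounts of 1 µg, 250 ng and 500 ng of RNA in that order, and the same donor entry for all 3, so the p-values below rest on library-to-library spread, whose source (animals, cultures or technique) the labels leave unstated. Neither the sex nor the age of the mice was recorded.

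A RAB protein is a switch. Bound to GTP it sits on the cytosolic face of a vesicle or organelle and recruits effectors such as tethers and motors, and bound to GDP it is pulled off the membrane by a carrier protein. Exchange factors load GTP and GTPase-activating proteins trigger its hydrolysis, and each RAB marks its own step of membrane traffic. In macrophages these steps include phagocytosis, the maturation of phagosomes into degradative compartments, cytokine secretion and the return of TLR4 to the cell surface.

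Gene expected counts summed to 13318395, 15352661 and 15812581 in replicates 1, 2 and 3. RAB genes took 0.145%, 0.161% and 0.145% of them (mean 0.150% ± 0.00941, SD, n = 3). All 12 macrophage markers had a TPM (a level per length, scaled to a fixed total per library) of 1 or more in every library, from 1.82 for Fcgr1 to 454 for Ptprc, and their summed TPM was 981, 1273 and 1243. Of 25 markers of 9 other cell types, Kdr was at that level (mean TPM 1.95), and the markers of neutrophils, mast cells, epithelium and neurons had no count. By the mean over libraries, 2 of the 25 reached a TPM of 1, Kdr and the T cell marker Cd4 (1.14). In a second deposited quantification of the same libraries, 7 of the 25 had a mean TPM of at least 1. They were led by the T cell marker Cd3d at 25.0, which had no count in the gene table, and the endothelial marker Pecam1 at 7.72. Their part in the RAB levels was not tested. In bulk RNA, fewer cells that use a gene and less RNA per cell cannot be told apart.

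RAB paralogs share much of their coding sequence, and the bases that tell them apart are scattered along it. The stretch below encodes the P-loop, which binds the phosphates of GTP, and is shown because it is among the most conserved parts of the family. The 3 RAB5 genes, which act on early endosomes, are given from the start of this stretch 5′ to 3′ on the coding strand, in mm10. Capitals mark bases that differ from Rab5b, at 8 of 42 positions in Rab5a and at 7 in Rab5c.
Rab5b, chr10:128686800-128686841, minus strand, exon 2: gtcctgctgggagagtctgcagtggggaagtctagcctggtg
Rab5a, chr17:53483982-53484023, plus strand, exon 2: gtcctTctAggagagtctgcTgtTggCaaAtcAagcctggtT
Rab5c, chr11:100719967-100720008, minus strand, exon 2: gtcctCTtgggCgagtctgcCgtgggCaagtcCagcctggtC

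The same stretch of the RAB6 genes, which act at the Golgi, runs across the junction of exons 1 and 2 and is shown because this pair had the widest gap of all paralogs in log2(TPM + 1). Capitals mark the 7 of 42 bases at which Rab6b differs from Rab6a.
Rab6a: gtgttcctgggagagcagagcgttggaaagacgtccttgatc
Rab6b: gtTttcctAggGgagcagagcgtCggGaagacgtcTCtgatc
Over the aligned bases of the coding sequences, with gaps left out, the 13 paralog pairs compared below were between 63.1% (Rab7 and Rab7b) and 79.2% (Rab8a and Rab8b) identical. The part left out differed by pair. For Rab1a and Rab1b, with coding sequences of 615 and 762 bases, 582 bases were aligned. Runs of 31 bases present in both members of a pair numbered 8 for Rab1a and Rab1b and 5 for Rab5a and Rab5b, and no such run was shared in the coding sequence of the other 11 pairs.

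RNA of 31 of the 59 RAB genes (52.5%) reached a TPM of 1 or more in each of the 3 libraries, called detected from here on, beside 35.7% of the 22015 nuclear coding genes. Another 6 reached 1 in some libraries only (Rab4a, Rab33b, Rab40c, Rab15, Rab23 and Rab29), and 22 stayed under 1 in all 3. With 10 as the minimum there were 14 RAB genes (23.7%), beside 13.8% of nuclear coding genes. The median of the mean TPM was 11.8 over the detected RAB genes and 8.13 over all detected nuclear coding genes. Rab14 and Rab8b alone held 43.9% ± 0.868 of all RAB expected counts (SD, n = 3).

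**Figure D1:**
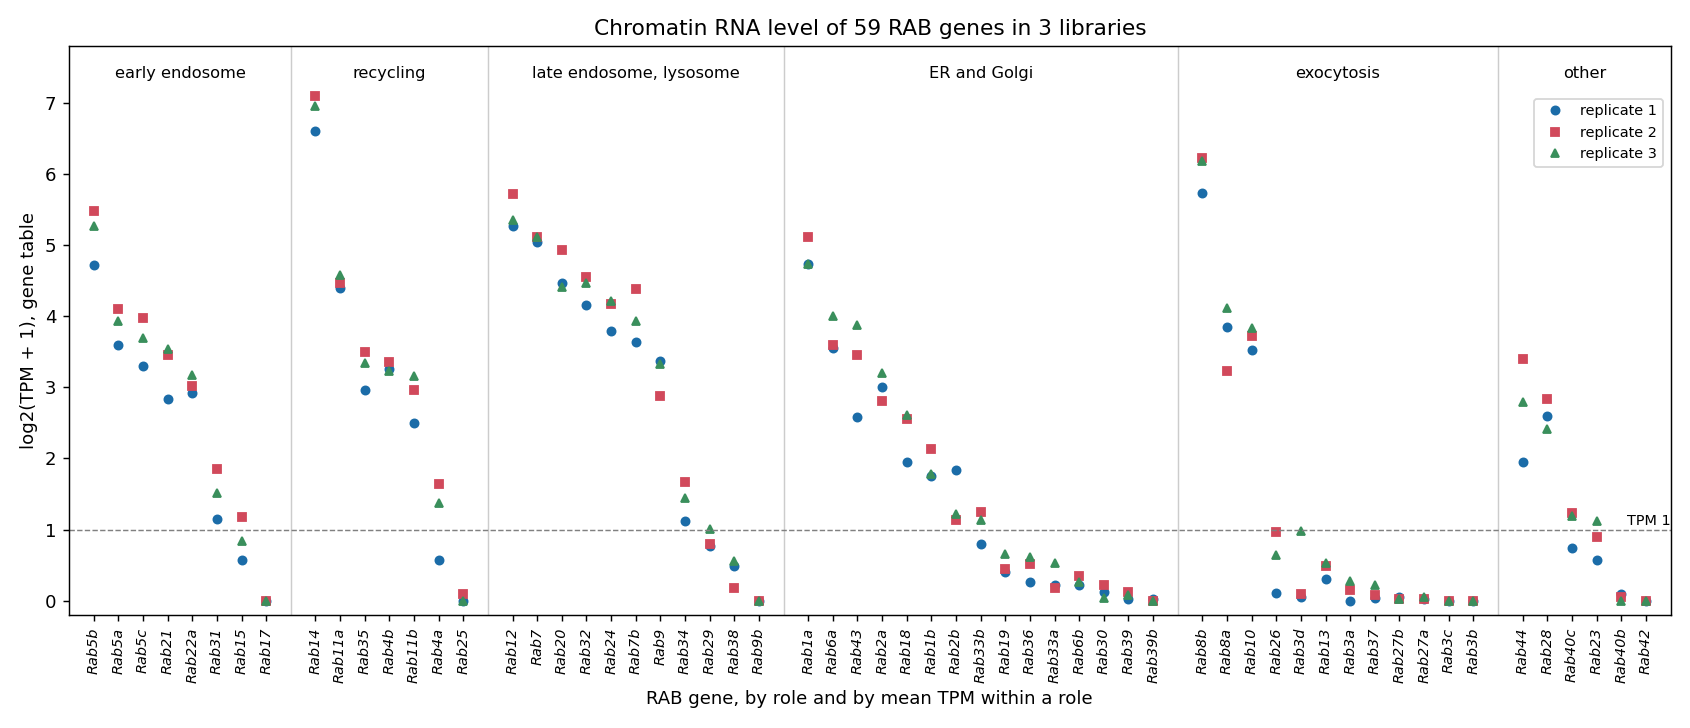
Level of each of the 59 RAB genes, as log2(TPM + 1) of the gene table, with 1 point for each of the 3 libraries and genes grouped by role; the dashed line marks a TPM of 1. Rab14 (97 to 136) and Rab8b (52 to 74) lie above all other RAB genes, and 9 of the 12 exocytosis genes lie under the line in at least 1 library.

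Rab14 carries cargo between the Golgi and endosomes and is found on phagosomes. It was the most abundant RAB RNA, with a TPM of 96.7, 136 and 123 in replicates 1, 2 and 3 (118.8 ± 20.2, SD, n = 3). The gene lies at chr2:35180205-35201120 on the minus strand. Rab8b directs vesicles from the Golgi to the plasma membrane and stood second, at 52.2, 73.5 and 71.3 (chr9:66843664-66919687, minus strand). The lowest Rab14 library was above the highest Rab8b library, and the lowest Rab8b library was above the highest of Rab12, the third gene in the order, so these ranges did not overlap. By TPM in the second quantification Rab14 was again first, but Rab8b came after Rab12, Rab7 and Rab11a. The estimated counts of Rab8b there were above those of Rab12, Rab7 and Rab11a in every library. Rab8b had more expected counts than Rab14 in every library (4340, 5610 and 5478 against 4031, 5499 and 4464), and it was Rab14 that was higher per length. Below them the ranges of neighbouring genes overlapped, beginning with Rab12 (37.4, 51.4 and 39.8) and Rab5b (25.3, 43.7 and 37.4). Their order by TPM is not that of counts either. Rab12 had 716, 756 and 676 expected counts, fewer than the 894, 1374 and 1248 of Rab5b.

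Among the 8 genes of early endosomes and uptake, 6 were detected, with a median mean TPM of 8.09 over the list. Rab5b, which like its paralogs drives fusion of early endosomes, led at 35.5 ± 9.33 (SD, n = 3). Rab5a followed at 11.1, 16.1 and 14.3, and Rab5c at 8.82, 14.7 and 11.9. Those 2 ranges overlapped, while every Rab5b library was above every library of either paralog. Rab21, an integrin-uptake RAB, was at 6.12, 10 and 10.7, and Rab22a, which acts on early and tubular recycling endosomes, at 6.58, 7.11 and 8.05. Rab31, which acts between the Golgi and endosomes, was at 1.22, 2.61 and 1.86. Rab15 had 0.49, 1.27 and 0.78, and Rab17, known from epithelial cells, had no count in any library.

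The recycling genes return cargo from endosomes to the surface, and 5 of 7 were detected (list median 8.73). After Rab14 came Rab11a, the RAB of the recycling endosome, at 20.1, 21.1 and 22.8. Its paralog Rab11b was lower in each library, at 4.64, 6.78 and 7.94. Rab35 and Rab4b act in a fast return route from early endosomes. Rab35 was at 6.8, 10.2 and 9.18, and Rab4b at 8.53, 9.28 and 8.37. The Rab4b value is uncertain: 62.7% of its 31-base words also occur in transcripts of other genes, a share that is 74.8% for Rab43, 59.6% for Rab2b and 54.4% for Rab24, whose values are uncertain as well. The Rab4b gene shares its strand and place with Gm21983 and Mir3101. Rab4a was at 0.48, 2.12 and 1.59, with its lowest library in replicate 1, and Rab25, an epithelial relative of Rab11, had 1 count in replicate 2 and none elsewhere.

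Late endosomes, lysosomes and phagosomes were the role with the highest list median, a mean TPM of 15.2 over 11 genes, of which 8 were detected. Rab7, which brings late endosomes and phagosomes to lysosomes, was at 31.8, 33.7 and 33.5, the narrowest range among the RAB genes above a TPM of 10. Rab12, which sends recycling receptors to degradation, averaged 42.9 ± 7.50. Rab20, a RAB of maturing phagosomes, was at 21.2, 29.5 and 20.2. Rab32, which acts on lysosome-related organelles, was at 16.9, 22.5 and 21.1, whereas its relative Rab38 was at 0.4, 0.13 and 0.47. Rab24, linked to autophagy, was at 12.8, 17.0 and 17.6, and its gene overlaps Prelid1 on the opposite strand. Rab7b, described in macrophages as limiting TLR4 signalling, was at 11.5, 19.9 and 14.2. Rab9, which returns receptors from late endosomes to the Golgi, was at 9.34, 6.36 and 9.07, with replicate 2 lowest. Rab34, which positions lysosomes, stood at 1.17, 2.17 and 1.71, just above the limit for detection. Rab29 (0.7, 0.73 and 1.01) fell just short of it, and Rab9b had no count.

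The list of endoplasmic reticulum and Golgi genes was split, with 7 of 15 detected and a median mean TPM of 1.10. Rab1a, needed for transport from the endoplasmic reticulum to the Golgi, led at 25.7, 33.5 and 25.6. Its paralog Rab1b had 2.36, 3.4 and 2.45. Rab6a, which guides traffic within and back from the Golgi, was at 10.8, 11.1 and 15.0. Rab43, also of the Golgi, varied most between libraries among the detected members of the list, at 4.97, 9.95 and 13.7, and 3 other annotated genes overlap it on its strand. Rab2a, which acts at the Golgi, was at 7, 6 and 8.19. Its paralog Rab2b was at 2.57, 1.19 and 1.32, with replicate 1 highest. Rab18, of the endoplasmic reticulum and lipid droplets, was at 2.86, 4.88 and 5.1. The remaining 8, among them Rab33b, Rab30 and Rab6b, were not detected by this rule.

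Of 12 exocytosis genes 3 were detected, and the list median was a TPM of 0.233. In the second quantification 7 were, with Rab37, Rab27b, Rab3c and Rab3b added. The detected ones were Rab8b, its paralog Rab8a and Rab10, which moves vesicles to the plasma membrane and has been reported to supply TLR4 to the macrophage surface. Rab10 was at 10.5, 12.2 and 13.2. Rab8a was at 13.4, 8.41 and 16.3, with replicate 2 lowest, although its expected counts were 267, 283 and 261. The RABs of regulated granule and synaptic vesicle release in this list stayed under a TPM of 1 in every library. Rab27a, which tethers secretory granules and lysosome-related organelles, had 1 count in each library, and Rab27b had 2 in each. Rab3b and Rab3c had none, Rab3a had 0, 2 and 4 counts, and Rab3d reached a TPM of 0.98 in replicate 3 against 0.04 and 0.07 in the others. These low levels are uncertain. The second quantification gave Rab27b 229, 302 and 348 estimated counts and Rab27a between 42.6 and 61.5. There Rab3c had 321, 752 and 651 and Rab3b 17, 22 and 19. For a gene with no count, the upper limit of 3 counts corresponds to 0.225, 0.195 and 0.190 CPM (expected counts scaled to a fixed library total), which covers counting error only.

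The remaining 6 members do not belong to these roles. Rab44, a large RAB with calcium-binding EF hands known from blood cells, was at 2.86, 9.5 and 5.93, and Rab28, a RAB of cilia, at 5.07, 6.14 and 4.35. Rab40c, part of a ubiquitin ligase, and Rab23, an inhibitor of Hedgehog signalling, straddled a TPM of 1. Rab40b was at or under 0.07, and Rab42 had no count.

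Replicate 1 was the low library for most RAB genes, as it was for coding genes in general. Of the 31 detected RAB genes, 23 were lowest in replicate 1, 4 in replicate 2 and 4 in replicate 3, and 18 were highest in replicate 2. Of all detected nuclear coding genes, 75.8% were lowest in replicate 1 and 61.5% highest in replicate 2. Once the TPM was rescaled to a fixed total over nuclear coding genes, 16, 9 and 6 RAB genes were lowest in replicates 1, 2 and 3, as were 40.5%, 30.7% and 28.8% of detected nuclear coding genes. The exceptions to the general order included Rab8a, Rab9 and Rab2a, lowest in replicate 2, and Rab20, Rab28 and Rab4b, lowest in replicate 3. The coefficient of variation between libraries, estimated with edgeR on expected counts, had a median of 0.159 over the 38 RAB genes with enough counts, from 0.138 for Rab35 to 0.286 for Rab4a, and of 0.175 over all 12505 genes fitted. Without replicate 2 the RAB median was 0.116.

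The level of RAB genes showed little relation to their length along the genome. Over the 31 detected genes, Spearman's rho between the genomic span and the mean TPM was -0.01, and 0.18 over all detected nuclear coding genes, given as descriptions across genes within the same libraries. The median span was 25193 bases for detected RAB genes and 19907 bases for the others.

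The sequence just upstream of the start held more CG in detected than in other RAB genes, by the counts that follow, which carry no test. RefSeq promoter sequences (GRCm38.p6) matched 48 of the 59 by symbol, and the dinucleotide CG was counted in the 250 bases before each RefSeq start. At least 10 CG were present in 24 of the 27 detected RAB genes matched, in 11 of the 21 others, and in 37.8% of all 32817 promoters of the table. The share among detected genes in general was not counted. These counts set no limit on the distance from the RefSeq start to the annotated 5′ end. It reached 176 bases in the detected RAB genes (Rab6a) and 1994 in the others (Rab17). The median number was 20 for the detected genes (5 to 39), 11 for the others (3 to 40) and 6 for all promoters. The groups overlapped widely: Rab6b had 40 CG at a mean TPM of 0.21, and Rab32 had 5 at a mean TPM of 20.2. The 150 bases before the RefSeq start are shown for the 2 genes with the highest and 2 with the lowest levels in the gene table. Only genes whose RefSeq start lies within 50 bases of the annotated 5′ end were taken, chosen after their levels were seen. Rab9b, with no count in the gene table, was left out by this limit and had 16 CG in its 250 bases. Rab3b had a mean TPM of 2.72 in the second quantification. The stretches are written 5′ to 3′ on the strand of the gene, with every CG in capitals, and hold 17, 15, 5 and 3 of them in this order.
Rab14, chr2:35201121-35201270, minus strand: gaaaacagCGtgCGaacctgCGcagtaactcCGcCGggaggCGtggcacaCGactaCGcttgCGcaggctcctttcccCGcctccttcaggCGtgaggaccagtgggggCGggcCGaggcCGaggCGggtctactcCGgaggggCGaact
Rab8b, chr9:66919706-66919855, minus strand: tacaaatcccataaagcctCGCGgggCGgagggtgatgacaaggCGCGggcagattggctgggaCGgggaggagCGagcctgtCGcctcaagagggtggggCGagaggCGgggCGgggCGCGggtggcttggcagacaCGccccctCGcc
Rab3b, chr4:108878920-108879069, plus strand: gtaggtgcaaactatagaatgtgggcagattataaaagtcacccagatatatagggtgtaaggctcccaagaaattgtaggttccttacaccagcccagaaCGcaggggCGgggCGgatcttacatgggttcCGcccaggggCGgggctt
Rab42, chr4:132303357-132303506, minus strand: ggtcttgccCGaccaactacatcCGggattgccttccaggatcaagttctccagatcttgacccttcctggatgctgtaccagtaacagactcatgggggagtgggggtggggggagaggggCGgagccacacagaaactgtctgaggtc
A count of CG is a description of the window and shows nothing about which factor binds there.

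Where the genome holds paralogs under the same number, they usually differed in TPM. In each of the 13 pairs with a member at a mean TPM of at least 1, the same paralog was higher in all 3 libraries. A pair entered through its higher member, so pairs with both members low were left out. How often other pairs of genes keep their order was not counted. The exact two-sided sign-flip permutation test of the within-library difference gave p = 0.25 for every pair and 0.25 after Benjamini-Hochberg adjustment over the 13, which is the smallest value that 3 libraries allow, so no pair can reach 0.05. The widest gap was between Rab6a (10.8, 11.1 and 15.0) and Rab6b (0.16, 0.27 and 0.2), the pair whose P-loop stretches are printed above. That difference was 3.44 ± 0.26 in log2(TPM + 1) (SD, n = 3), a scale that understates the difference of low genes. Rab9 over Rab9b followed with 3.19 ± 0.27 and Rab1a over Rab1b with 2.97 ± 0.02. Rab8b exceeded Rab8a by 2.31 ± 0.59 and Rab4b exceeded Rab4a by 2.09 ± 0.52 on this scale. Rab2a was above Rab2b by 1.61 ± 0.42, Rab11a above Rab11b by 1.61 ± 0.26 and Rab7 above Rab7b by 1.10 ± 0.34. Within the RAB5 genes, Rab5b was above Rab5c by 1.50 ± 0.07 (0.21 ± 0.11 in the second quantification, where their ranges overlapped) and above Rab5a by 1.28 ± 0.14, while Rab5a and Rab5c differed by 0.23 ± 0.09, and their ranges over libraries overlapped. Between Rab33a and Rab33b, and between Rab40b and Rab40c, the higher member was itself near a TPM of 1.

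**Figure D2:**
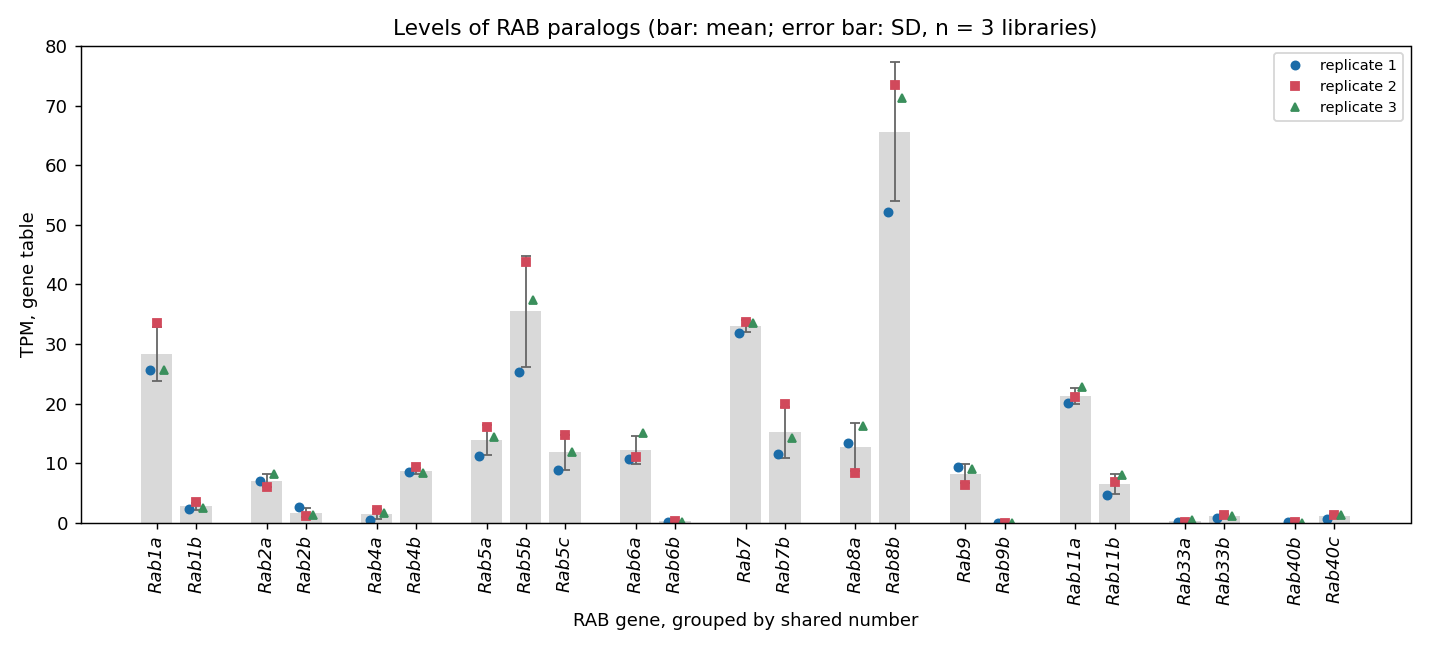
TPM of RAB genes that share a number in their symbols; bars are means over 3 libraries, error bars are SD and points are the libraries. Rab8b, Rab5b and Rab1a stand above their paralogs in every library, and Rab5a and Rab5c overlap.

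The pairs differ in how far length enters the comparison. In CPM of expected counts, which are not divided by length, the gap of Rab11a over Rab11b was 0.26 ± 0.22 on the log2 scale and that of Rab7 over Rab7b was 0.34 ± 0.35, and replicate 2 had Rab7b higher. Rab8a relative to Rab8b moved further down, to -4.17 ± 0.19. The gap of Rab5a over Rab5c widened from 0.23 to 0.88 ± 0.07. Rab33a relative to Rab33b moved from -0.75 to -1.98 ± 0.24.

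Chromatin RNA holds introns, and the annotation lists transcripts of a gene that keep an intron (retained-intron isoforms) beside its coding ones. Over the detected RAB genes, coding isoforms took 58.9% ± 1.23 and retained-intron isoforms 33.2% ± 0.390 of the TPM (SD, n = 3), beside 47.8% ± 1.54 and 39.6% ± 1.70 over all detected nuclear coding genes. These shares pool TPM over genes, so abundant genes weigh most. Rab14 alone had a mean retained-intron TPM of 104, and Rab8b, with only a coding transcript, a mean TPM of 65.6. The RAB shares without these genes were not computed. Isoforms marked for nonsense-mediated decay took 0.945% ± 0.214 of the RAB TPM and 3.61% ± 0.218 of the TPM of detected nuclear coding genes. In the second quantification these shares were 3.95% ± 0.315 and 4.84% ± 0.149. Of the detected RAB genes 4 (Rab8b, Rab20, Rab10 and Rab2a) have a single annotated transcript, so no such split could be seen in them. Others, among them Rab7, Rab1a and Rab5c, have several transcripts but no annotated retained-intron isoform, so none of their TPM could be assigned to that class.

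**Figure D3:**
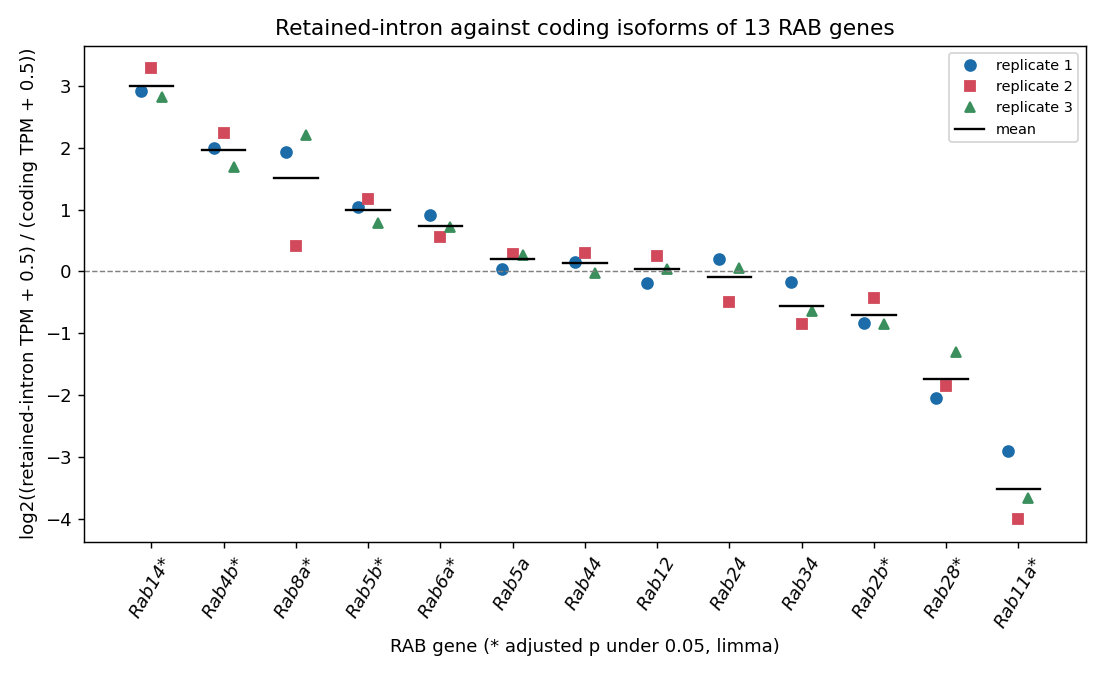
Log2 ratio of the TPM of retained-intron to coding isoforms, 0.5 added to each, for the 13 RAB genes tested; points are the 3 libraries, the bar is their mean and an asterisk marks an adjusted p under 0.05 (limma). Rab14 lies near 3 in all 3 libraries and Rab11a between -4 and -2.9.

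Both classes are annotated in 26 RAB genes, and 13 of these had a mean summed TPM of at least 1 and were tested. Retained-intron isoforms were higher in 5 of the 13, beside 35.5% of the 5601 genes tested, and coding isoforms were higher in 3, beside 31.8%; the remaining 5 did not pass. Over the 13 the log2 ratio had a median of 0.14, and over all genes tested 0.08. Both counts lie near the background. The test was limma's, of the ratio against 0, with Benjamini-Hochberg adjustment over all 5601 genes.

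In Rab14 the retained-intron isoforms had a TPM of 84.0, 122 and 106 against 10.7, 12.1 and 14.6 for the coding ones. The log2 ratio was 3.00 (SE 0.15, limma adjusted p = 1.28e-06; 1.71 when TPM was averaged over the transcripts of each class), so most RNA of the leading RAB gene was assigned to isoforms that keep an intron. Its most abundant isoform, of the retained-intron class and 5003 bases long, held 20.6% of the gene's TPM, and 7 of its 13 annotated transcripts are of the retained-intron class. Rab4b followed with 1.97 (SE 0.20, limma adjusted p = 5.37e-05). Rab8a had a log2 ratio of 1.52 (SE 0.32, limma adjusted p = 0.00307) with library values of 1.93, 0.41 and 2.21, of which replicate 2 stood apart. Its retained-intron isoform is 542 bases long, its coding isoform 4550. In Rab5b the retained-intron isoform took 67.2% of the TPM (log2 ratio 1.00, SE 0.15, limma adjusted p = 0.000448), and in Rab6a the ratio was 0.73 (SE 0.18, limma adjusted p = 0.00607).

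Rab11a lay at the other end. Its coding isoforms had a TPM of 13.7, 15.7 and 16.3 and its retained-intron isoform 1.39, 0.51 and 0.83, a log2 ratio of -3.52 (SE 0.22, limma adjusted p = 3.9e-06). It was -1.76 in the second quantification and -1.15 with TPM averaged over the transcripts of each class. Coding isoforms were also higher in Rab28 (-1.74, SE 0.23, limma adjusted p = 0.000224). In Rab2b the log2 ratio was -0.70 (SE 0.24, limma adjusted p = 0.028), and its adjusted p was 0.132 without replicate 1 and 0.125 without replicate 3. The paralogs Rab5a and Rab5b differed in this respect in their values: Rab5a had a log2 ratio of 0.20 (SE 0.17, limma adjusted p = 0.328), and the difference between the 2 genes was not tested. Ratios of Rab44 (0.14), Rab12 (0.03), Rab24 (-0.08) and Rab34 (-0.55) did not pass either. With TPM averaged per class, Rab44 passed for retained-intron isoforms (0.64, limma adjusted p = 0.0101) and Rab24 for coding ones (-0.58, limma adjusted p = 0.0169), and without the variance trend Rab34 passed for coding ones (limma adjusted p = 0.0436). A coding and a retained-intron isoform of Rab44, both of 4105 bases, had the same TPM in every library, so its ratio rests in part on 2 isoforms with equal values.

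The second deposited quantification, a transcript table made from the same libraries, gave higher values for most RAB genes. Summed per gene, 42 RAB genes met the same rule of detection there, beside 49.8% of nuclear coding genes; these held all 31 of the gene table and 11 more. The median log2 difference between the tables, with 1 added to each TPM, was 0.70 over the detected RAB genes and 0.58 over all detected nuclear coding genes. Only Rab24, Rab44 and Rab36 were lower in the second table. Across the 59 genes Pearson's r of the log2 values was 0.90, a description across genes quantified from the same reads.

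**Figure D4:**
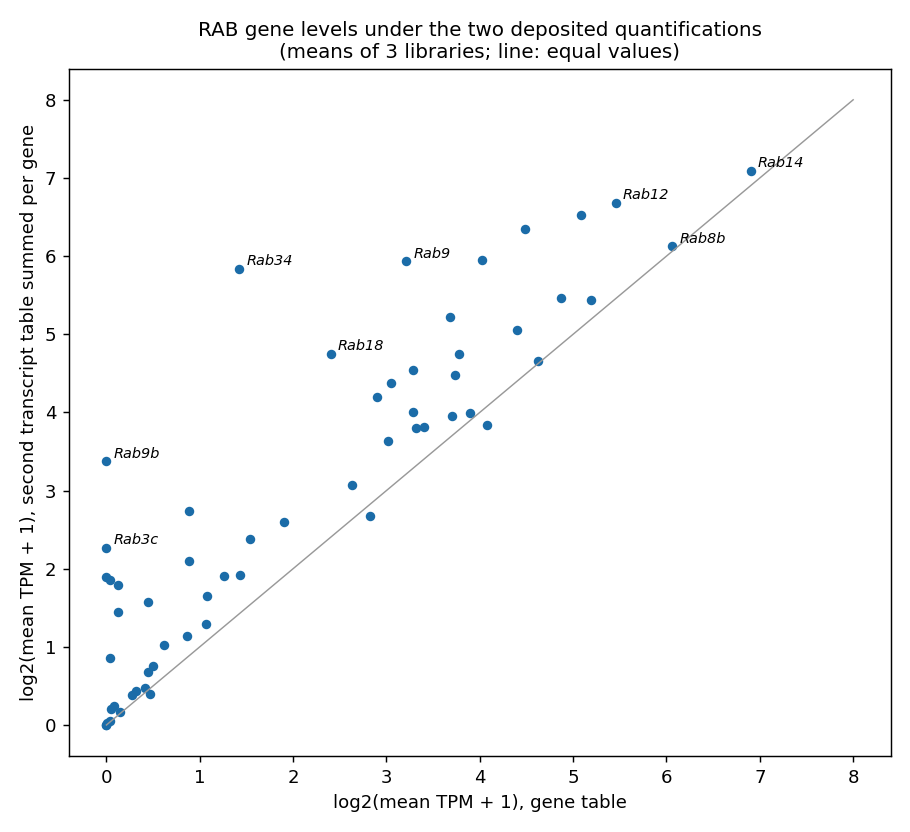
Mean level over 3 libraries of each RAB gene in the gene table (x axis) and in the second transcript table summed per gene (y axis), both as log2(TPM + 1); the line marks equal values. Rab14 and Rab8b lie near the line, and Rab34, Rab9, Rab18, Rab9b and Rab3c lie more than 2 above it.

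For 5 RAB genes the tables were more than 2 apart on the log2 scale, which was the case for 6.14% of nuclear coding genes. Rab34 averaged a TPM of 1.68 in the gene table and 56.2 in the second, where 91.6% was assigned to a retained-intron isoform of 352 bases. Of its 31-base words, 29.8% also occur in other genes. Rab9 went from 8.26 to 60.2, of which 46.0 belonged to a coding isoform of 392 bases that shares 26.0% of its words with other genes. Rab18 went from 4.28 to 25.8, led by an isoform of 354 bases marked for nonsense-mediated decay, which shares none. In counts, which are not divided by length, these genes were less far apart. In replicates 1, 2 and 3 Rab18 had 275, 366 and 353 expected counts and 519, 686 and 651 estimated counts in the second table. Rab9 had 170, 106 and 177 against 473, 373 and 643, and Rab34 had 17, 37 and 29 against 268, 299 and 276. Rab9b and Rab3c had no count in the gene table, and in the second table they were at a mean TPM of 9.38 and 3.82. Their levels, and those of Rab34, Rab9 and Rab18, are therefore uncertain. Rab17 and Rab42 had no count in either table. For Rab14 (135 ± 16.6, SD, n = 3) and Rab8b (68.8 ± 5.30) the second table was within 0.19 and 0.07 of the gene table on the log2 scale. Rab12 went from 42.9 to 102, Rab7 from 33.0 to 91.2, Rab11a from 21.3 to 80.2 and Rab7b from 15.2 to 60.8. The first 3 of these passed Rab8b in TPM. In estimated counts, which are not divided by length, Rab8b stayed above them, at 5753, 8096 and 7661 in replicates 1, 2 and 3. Rab7 had 2064, 2891 and 2471, Rab12 1242, 1766 and 1286, and Rab11a 1007, 1257 and 1190. Rab7 illustrates a disagreement at the isoform level. Its coding isoform of 2159 bases held 70.6% of its TPM in the transcript table and 5.13% in the second.

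Calls of the isoform test moved with the table as well. There, 20 RAB genes could be tested, of which 9 were higher for retained-intron isoforms, beside 46.8% of the 6847 genes tested, and 7 for coding isoforms, beside 32.4%. Rab14, Rab4b, Rab8a, Rab5b and Rab6a kept their call, as did Rab11a and Rab28. Rab12 changed to a retained-intron call with a log2 ratio of 0.76, Rab44 to a coding call with -0.52, opposite to its call from averaged TPM, and Rab34, with its short isoform, to a retained-intron call with 4.96 (limma adjusted p = 8.94e-07). Of the 13 paralog differences, 11 moved by more than the spread between libraries. Rab5a and Rab5c changed places, since in the second table Rab5c was higher in every library, by 1.23 ± 0.15 on the log2 scale.

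The genes that load, unload, carry and read RAB proteins had median mean TPM values of 6.17 for carriers, 8.94 for exchange factors, 9.37 for GTPase-activating proteins and 4.25 for effectors. The median TPM over all 59 RAB genes was 1.22, 2.17 and 1.71 in replicates 1, 2 and 3. Over all nuclear coding genes the detected share was 35.7%, the background for each list here. Of 8 carrier and prenylation genes 6 were detected. Among them were Gdi2 at 29.0 ± 6.15, which extracts RAB proteins from membranes, and Rabggtb at 12.1 ± 3.66, a subunit of the enzyme that attaches their lipid anchor (SD, n = 3). Of 36 exchange factor genes 29 were detected. The leading ones were Dennd1a (225, 250 and 225), which loads RAB35, Dennd5a (164, 160 and 200) and Rabgef1 (107, 136 and 125), which loads RAB5. Of 42 genes for GTPase-activating proteins 31 were detected, with Rab3gap2 (128 ± 19.0), Tbc1d2b (72.1 ± 12.4) and Tbc1d1 (56.5 ± 3.09) highest. Of 40 effector genes 28 were detected. Those with the highest levels were Eea1 (184 ± 23.6) and Appl2 (163 ± 13.8), which bind RAB5 on early endosomes, and Rab11fip1 (65.8 ± 11.1), which binds RAB11. Eea1 and Appl2 were thus at higher TPM than any of the 3 RAB5 genes in every library.

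Isoform classes in these lists were mixed, and the calls below were not compared with the second quantification or with TPM averaged per class. Retained-intron isoforms were higher in 1 of 4 carrier genes tested, 9 of 23 exchange factors, 8 of 26 GTPase-activating proteins and 6 of 20 effectors, and coding isoforms in 0, 5, 10 and 12 of them, beside 35.5% and 31.8% of all genes tested. The median log2 ratio was 0.38 for carriers, 0.04 for exchange factors, -0.09 for GTPase-activating proteins and -0.67 for effectors, beside 0.08 over all genes tested. Dennd1a (2.26) and Dennd5a (1.36) had higher retained-intron isoforms, and Eea1 (-0.44) and Appl2 (-1.52) higher coding isoforms, all at a limma adjusted p under 0.05, while Rabgef1 (-0.10) and Rab3gap2 (0.17) did not pass.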

How the data were processed

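The 3 libraries hold ribosomal-RNA-depleted total RNA. Per the file headers, genes and transcripts of each library come with expected counts and TPM under column names used by RSEM, and transcripts a second time with estimated counts and TPM under names used by kallisto; the deposited text files give mm10 and GENCODE M21. Aligner, programs, versions and strand setting: not given in the sources used here. Overlapping genes (21 RAB genes on the opposite strand, 17 on the same) are therefore uncertain. Expected counts and TPM are used as the authors deposited them; TPM is relative to all rows of a table.

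RAB rows were read from tables of all genes. Rows that name no gene (26345, with 1.40%, 0.352% and 0.354% of counts in replicates 1, 2 and 3) stayed out of totals and fits. Every pair of libraries differed beyond sampling noise (chi-square per degree of freedom 17.1 to 41.4), so none was a copy. Isoform ratios were log2 of retained-intron over coding TPM, 0.5 added to each, in genes with a mean summed TPM of at least 1, tested with limma 3.58.1 (intercept only, variance trend on log2 mean summed TPM, Benjamini-Hochberg). The spread came from edgeR 4.0.16 (estimateDisp, TMM, filterByExpr), for which expected counts were rounded. Levels of paralogs were compared by an exact sign-flip permutation test. The models were tested on simulated data. Alternatives were the second table, other pseudocounts and minimums, other scalings, no variance trend and leaving out each library.

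Members, role lists, regulator lists and markers were chosen with earlier results of these data known. Any RAB gene may be named, and of each regulator list the 3 genes with the highest mean TPM, of which 1 is not reported here. The plan was to show proteins of the RAB5 genes and 2 pairs; coding stretches and promoters are shown instead. Of the role lists, the name Rab41 was not found among the members. R was 4.3.3 and python 3.11.15.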

Additional observations from a re-analysis of the deposited data

How the results depend on the processing

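No paired analysis was possible because the series has 1 group. The second transcript table gave higher retained-intron isoforms in 9 RAB genes and higher coding isoforms in 7, and 3201 of all genes had higher retained-intron isoforms, where the numbers of genes tested also differ. Genes with higher coding isoforms numbered 1116 with a minimum summed TPM of 5, which leaves fewer genes to test, and 1121 when TPM was averaged over the annotated transcripts of a class, where 2203 had higher retained-intron isoforms; the cause was not tested. In the second table the signs of Rab5a over Rab5c (-1.23) and of the isoform ratios of Rab24 (0.14), Rab34 (4.96), Rab44 (-0.52) and Rab5a (-0.20) were reversed, and without replicate 2 those of Rab12 (-0.078) and Rab24 (0.12; -0.22 without replicate 1). Leaving out 1 library gave 31 to 34 detected RAB genes, a share of counts of 0.145% to 0.153%, 5 and 2 to 3 RAB isoform calls, 1715 to 1838 and 1489 to 1611 calls over all genes, and 13 alike paralog pairs. The median RAB coefficient of variation ranged from 0.116 (without replicate 2) to 0.193. Detected RAB genes numbered 22 at a TPM of at least 5, 34 at 0.5, 37 at 10 counts and 40 after rescaling to coding genes. With 3 libraries, the paralog test cannot pass 0.05. Genes under 3 counts in the gene table have no usable level there. For some of them the second table gave many more, such as 574, 955 and 932 estimated counts for Rab9b in replicates 1, 2 and 3.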
